A study of Mus musculus with 227 samples.

Results

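Cholinesterase inhibitors made up 3 of the 227 RNA sequencing libraries in a drug screen on primary mouse cerebrocortical cultures. The members were the libraries whose agent label begins with Galantamine, Rivastigmine or Pyridostigmine, and each drug had 1 library. They were labelled Galantamine·HBr, Rivastigmine Tartrate and Pyridostigmine Bromide, and are called by the names of the bases below. Cultures came from dissociated cerebral cortex of embryonic day 16.5 F1 embryos (FVB/N crossed with C3B6F1), were kept for 21 days in vitro and were then exposed for 8 h to 1 of 218 drugs or to vehicle, which was 0.2% DMSO and had 9 libraries. Doses are not in the sources used here, so the drugs were compared at matched time but not at known matched dose. Nothing in the labels says which libraries came from separate culture preparations, so p-values measure only the spread between libraries.

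Acetylcholine is cleared from the synapse by acetylcholinesterase, an extracellular hydrolase encoded by Ache, and more slowly by butyrylcholinesterase, encoded by Bche. When the enzyme is blocked, acetylcholine released nearby persists and acts for longer on G protein-coupled muscarinic receptors and on nicotinic receptors, which are ligand-gated cation channels. In the cortex most acetylcholine arrives on axons from the basal forebrain, which a culture of dissected cortex does not contain. Galantamine is a plant alkaloid with a tertiary amine that inhibits acetylcholinesterase reversibly and has also been described as an allosteric ligand of nicotinic receptors. Rivastigmine and pyridostigmine are carbamates that carbamylate the enzyme, rivastigmine also acting on butyrylcholinesterase. Rivastigmine carries a tertiary amine, whereas pyridostigmine is a quaternary pyridinium salt used mainly for its action outside the brain.

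The Galantamine, Rivastigmine and Pyridostigmine libraries held 40.74, 29.41 and 44.82 M counted reads, against 31.4 to 43.77 M in the vehicle libraries. Each inhibitor was sequenced under a different run code, which is the number that heads the sequencing name in the labels, and each of these 3 codes covered 32 libraries. The inhibitors were therefore set against both the 9 vehicles and their run mates, meaning the other 31 libraries of a drug's own run code, most of them other drugs. Galantamine shared its run code with vehicles 8 and 9, Rivastigmine with vehicle 1 and Pyridostigmine with vehicle 5, and the other 5 vehicles shared none with an inhibitor. Both comparisons use the same 3 inhibitor libraries and have 4 vehicles in common, so they are not independent of one another. In the inhibitor libraries all 8 neuron markers and 7 of 8 astrocyte markers averaged over 1 RPKM (reads scaled to transcript length and library total). None of 7 cholinergic neuron markers did, and their summed level was 1.32 to 1.65 RPKM in inhibitor libraries and 0.915 to 2.84 RPKM in vehicle libraries.

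Taken as a class against the 9 vehicles, the inhibitors changed 0 of 14948 genes tested (0%) at an adjusted p under 0.05 in edgeR's quasi-likelihood test with Benjamini-Hochberg adjustment, and the lowest adjusted p was 0.978. DESeq2 also called 0 genes. At an unadjusted p under 0.05 there were 276 genes (1.85%), of which 108 were higher and 168 lower with the inhibitors. That count depended on single libraries, with 131 genes without Pyridostigmine, 566 without vehicle 2, 679 without vehicle 4 and 183 without vehicle 6. Against run mates the class changed 0 of 15695 genes (0%), and 414 genes (2.64%) had an unadjusted p under 0.05, 124 higher and 290 lower. DESeq2 and limma on voom values each called 0 genes in that comparison as well. Both unadjusted shares lie below the share that an unadjusted p under 0.05 would pass by chance if no gene changed. The same holds for the unadjusted counts reported below for single drugs, for pairs and against antimuscarinic drugs.

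CPM values are counts scaled to the library total after adjustment by its TMM normalization factor. Of 13021 genes averaging 1 or more CPM, 96.1% had a 95% interval for the class against vehicle within 1 log2 unit of 0, and 511 did not. Against run mates the share was 98.5% of 13034 genes, and the median interval reached 0.158 log2 units to each side of its estimate. For these genes an average difference of 2-fold or more between the inhibitors and their reference lay outside the interval; the intervals leave room for smaller ones.

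The enzyme that the drugs inhibit was itself well expressed. Ache (chromosome 5, 137287519 to 137294466, mm10) stood at 41.6 CPM with Galantamine, 48.6 CPM with Rivastigmine and 26.4 CPM with Pyridostigmine. The vehicle libraries ranged from 26.6 to 77.7 CPM with a median of 59.8 CPM, so the groups overlapped. The class difference was -0.54 ± 0.297 log2 units (SE; 95% interval -1.18 to 0.11; edgeR adjusted p = 0.978), and -0.37 ± 0.282 against run mates (interval -0.93 to 0.19; edgeR adjusted p = 1). The run codes themselves differed in Ache: the run mates of Galantamine had a median of 61.6 CPM, those of Rivastigmine 56.9 CPM and those of Pyridostigmine 27.4 CPM, close to the Pyridostigmine library itself. Without Pyridostigmine the class difference in Ache from vehicle was -0.32.

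Butyrylcholinesterase RNA was scarce and matched the vehicles closely. Per length, Ache averaged 17.7 ± 4.89 RPKM in inhibitor libraries and 25.6 ± 7.38 RPKM in vehicle libraries (SD, n = 3 and n = 9), whereas Bche averaged 0.322 ± 0.0386 RPKM in inhibitor libraries and 0.323 ± 0.0959 RPKM in vehicle libraries. Bche had 1.91, 1.86 and 2.22 CPM with Galantamine, Rivastigmine and Pyridostigmine, inside the vehicle range of 1.24 to 2.88 CPM.

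Prima1 encodes the small membrane protein that anchors acetylcholinesterase tetramers on neurons, and Colq the collagen tail that anchors them at the muscle endplate. Prima1 stood at 0.495, 0.482 and 0.305 CPM with Galantamine, Rivastigmine and Pyridostigmine, against 0.286 to 1.28 CPM in vehicles, and rested on 48 reads over the 3 inhibitor libraries. Its class difference was -0.76 ± 0.367 log2 units against vehicle (interval -1.55 to 0.04) and -0.80 ± 0.287 against run mates (interval -1.37 to -0.23; edgeR adjusted p = 1). Counted from the lowest of the 32 libraries of each run, Prima1 ranked 8 with Galantamine, 1 with Rivastigmine and 3 with Pyridostigmine. Colq was at 0.0899 RPKM in inhibitor libraries and 0.134 RPKM in vehicle libraries.

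Genes that make, load and take up the transmitter were barely detected. Chat, the acetylcholine synthase, averaged 0.0991 RPKM in inhibitor libraries and 0.103 RPKM in vehicle libraries, from 31 and 96 reads in all. Slc18a3, the vesicular acetylcholine transporter, averaged 0.219 RPKM with the inhibitors and 0.213 RPKM with vehicle, and Slc5a7, the high-affinity choline transporter, 0.111 RPKM with the inhibitors and 0.122 RPKM with vehicle. Slc44a1, a choline carrier found in most cells, was the exception at 10.9 ± 0.892 RPKM in inhibitor libraries and 11.2 ± 1.53 RPKM in vehicle libraries. Of the 8 genes for cholinesterases and acetylcholine handling, 0 passed the threshold against either reference, and the median log2 fold change was -0.10 against vehicle and -0.19 against run mates, beside -0.002 and -0.01 over all genes tested.

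**Figure D1:**
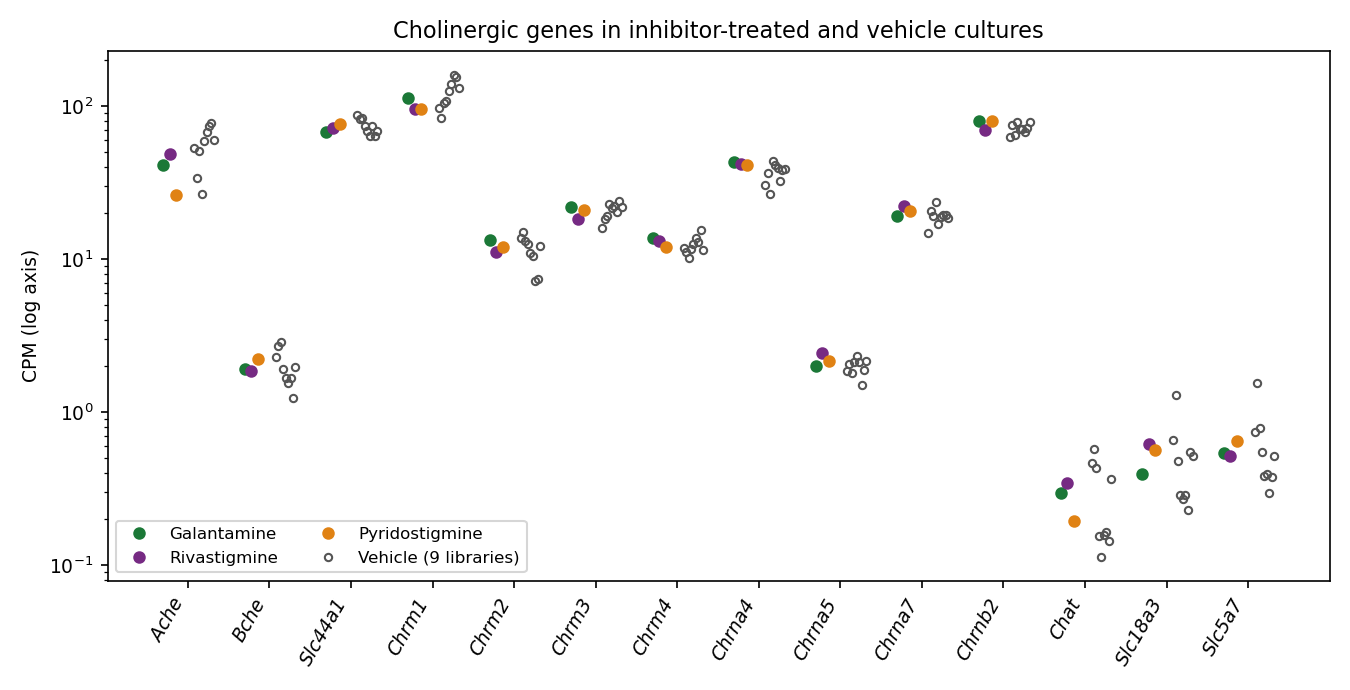
CPM on a log axis of cholinergic genes in the 3 inhibitor libraries, drawn left of the 9 vehicle libraries for each gene. The inhibitor points lie within or beside the vehicle spread for every gene drawn.

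Receptors for acetylcholine were present at levels that differed widely among family members. Chrm1, the main cortical muscarinic receptor coupled to Gq, was the highest muscarinic receptor at 16.3 ± 1.58 RPKM in inhibitor libraries and 19.6 ± 3.7 RPKM in vehicle libraries. Chrm4, coupled to Gi, averaged 9.04 ± 0.476 RPKM with the inhibitors and 8.56 ± 0.949 RPKM with vehicle. Chrm3, another Gq receptor, averaged 4.72 ± 0.451 RPKM with the inhibitors and 4.78 ± 0.519 RPKM with vehicle. These were followed by Chrm2, a Gi receptor, at 2.2 ± 0.197 RPKM with the inhibitors and 2.03 ± 0.521 RPKM with vehicle, and by Chrm5, a Gq receptor, at 0.539 ± 0.0813 RPKM with the inhibitors and 0.409 ± 0.131 RPKM with vehicle. The order Chrm1, Chrm4, Chrm3, Chrm2, Chrm5 held in the means of both groups, and neighbours in it were separated by more than their SDs.

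Chrm1 differed by -0.27 ± 0.177 log2 units from vehicle (interval -0.65 to 0.11) but by -0.03 ± 0.191 from run mates. Chrm2, Chrm3 and Chrm4 differed by 0.09, -0.03 and 0.07 log2 units from vehicle, with intervals that lay between -0.33 and 0.51. Chrm5 was at 0.965, 0.723 and 0.893 CPM with Galantamine, Rivastigmine and Pyridostigmine, against 0.329 to 1.03 CPM in vehicles, a difference of 0.40 ± 0.285 (interval -0.22 to 1.02). None of the 5 receptors passed the threshold, and their median was 0.07 against vehicle and 0.08 against run mates.

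Nicotinic RNA came mainly from 3 subunits. Chrna7, which forms homomeric channels with high calcium permeability, averaged 9.92 ± 0.748 RPKM in inhibitor libraries and 9.1 ± 1.1 RPKM in vehicle libraries. Chrnb2 and Chrna4, which together form the main high-affinity nicotinic receptor of the brain, averaged 9.18 ± 0.818 and 8.87 ± 0.161 RPKM with the inhibitors, and 8.56 ± 0.73 and 7.66 ± 1.1 RPKM with vehicle. The order Chrna7, Chrnb2, Chrna4 held in the means of both groups, and neighbours in it differed by less than the larger of their SDs. Chrna5, an accessory subunit, followed at 0.805 ± 0.0778 RPKM with the inhibitors and 0.727 ± 0.0987 RPKM with vehicle, and Chrna10, best known from cochlear hair cells, at 0.348 ± 0.0295 RPKM with the inhibitors and 0.199 ± 0.0718 RPKM with vehicle.

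Chrna10 (chromosome 7) was the nicotinic gene with the largest positive difference from vehicle. It stood at 0.965 CPM with Galantamine, 0.827 CPM with Rivastigmine and 0.828 CPM with Pyridostigmine, against 0.23 to 0.807 CPM in vehicles. The groups did not overlap, but 0.827 and 0.807 CPM nearly met. These values rested on 101 reads over the inhibitor libraries and 167 over the vehicle libraries. Over all libraries of the series the median was 0.257 RPKM, above the vehicle mean of 0.199 RPKM. Of all genes tested, 37 lay above every vehicle in all 3 inhibitor libraries (0.248%) and 27 lay below (0.181%). The difference was 0.80 ± 0.279 log2 units (interval 0.20 to 1.4; edgeR adjusted p = 0.978). Against run mates it was 0.35 ± 0.29 (interval -0.23 to 0.92), and Pyridostigmine ranked 15 of 32 in its run, where the median of the other libraries was 0.855 CPM.

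Class estimates of the major brain subunits were positive in both contrasts, which share their inhibitor libraries, and did not pass the threshold. Chrna4 stood at 43.1, 41.8 and 41.4 CPM with Galantamine, Rivastigmine and Pyridostigmine, against 26.7 to 43.8 CPM in vehicles, and differed by 0.21 ± 0.123 log2 units from vehicle and 0.23 ± 0.141 from run mates. Chrna7 differed by 0.12 ± 0.107 from vehicle and by 0.19 ± 0.0931 from run mates (interval 0.01 to 0.37; edgeR adjusted p = 1), with ranks of 22, 31 and 28 of 32 for Galantamine, Rivastigmine and Pyridostigmine. Chrnb2 differed by 0.10 log2 units in both. Of 12 nicotinic subunit genes tested, 7 had a positive estimate against each reference, and the median was 0.11 in both.

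Proteins that fold nicotinic receptors or damp their currents were abundant. Tmem35a encodes NACHO and Ric3 a second chaperone, and they averaged 52.3 ± 1.7 and 19.3 ± 0.989 RPKM with the inhibitors, and 58.1 ± 11.7 and 18.7 ± 2.32 RPKM with vehicle. Ly6h and Lynx1 encode prototoxins, which are membrane-anchored relatives of snake toxins, and averaged 47.5 ± 2.5 and 17.3 ± 2.0 RPKM with the inhibitors, and 50 ± 9.07 and 19 ± 3.31 RPKM with vehicle. Lynx1 differed by -0.17 ± 0.0738 log2 units from run mates (interval -0.32 to -0.03; edgeR adjusted p = 1) and by -0.13 ± 0.131 from vehicle. None of the 8 genes tested in this list passed the threshold, and estimates against vehicle ran from -0.21 to 0.16.

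**Figure D2:**
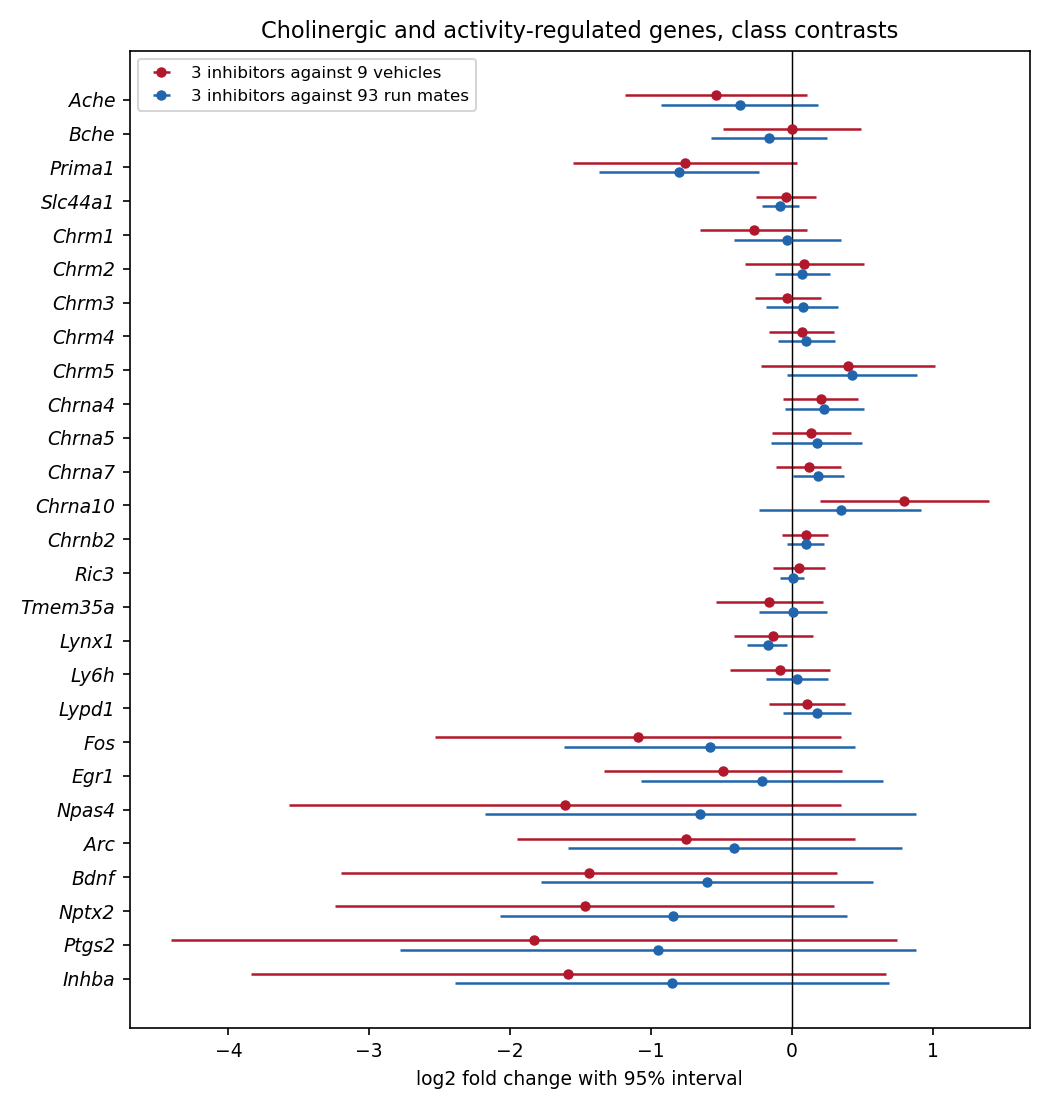
Log2 fold change of the inhibitor class, with 95% intervals, against the 9 vehicles and against run mates for cholinergic and activity-regulated genes. Most intervals cross 0, most cholinergic receptor genes have narrow intervals, and Fos, Npas4, Bdnf, Nptx2, Ptgs2 and Inhba have negative estimates that lie closer to 0 against run mates.

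Muscarinic receptors of the Gq type act through phospholipase C. Of the 14 genes tested on this route against vehicle, 0 passed the threshold, with a median of -0.04, and against run mates the median over 15 genes was 0.06. The G protein Gnaq differed by 0.01 ± 0.0757 log2 units from vehicle and the phospholipase Plcb1 by -0.02 ± 0.0843. The largest negative estimate against vehicle was that of Rgs4, which encodes a brake on Gq signalling, at -0.67, and it was -0.22 against run mates (interval -0.82 to 0.37). Against run mates Plcb2, another phospholipase gene, had the lowest estimate at -0.46 (interval -1.24 to 0.33).

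Immediate early transcription factors are switched on within minutes of neuronal firing or receptor stimulation and reach their targets over hours. All 16 had a negative estimate against vehicle, with a median of -0.75 log2 units, and 15 of 16 had one against run mates, with a median of -0.35, or -0.13 without Galantamine. None passed the threshold, and none had an unadjusted p under 0.05 against either reference. Members of this list vary together between libraries, so the number of negative estimates does not count separate observations. Fos stood at 19.1 CPM with Galantamine, 42.8 CPM with Rivastigmine and 29.7 CPM with Pyridostigmine, against 43.2, 18.7, 52.4, 16.6, 58, 114, 121, 138 and 22 CPM in vehicles 1 to 9. The vehicles alone thus spanned a wider range than the inhibitors. Vehicles 8 and 9, which share a run code, differed from one another more than the inhibitors did. The class difference in Fos was -1.09 ± 0.664 from vehicle (interval -2.53 to 0.35) and -0.58 ± 0.522 from run mates (interval -1.62 to 0.45).

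Npas4, a neuron-restricted factor induced by calcium entry, stood at 12.6, 20.8 and 22.4 CPM with Galantamine, Rivastigmine and Pyridostigmine, against 8.69 to 146 CPM in vehicles (median 25). Its difference was -1.61 ± 0.905 log2 units from vehicle and -0.65 ± 0.772 from run mates. Egr1, a zinc finger factor, was at 61.8, 80.2 and 86.1 CPM in the same 3 libraries, against 51.5 to 174 CPM in vehicles. In all of these the inhibitors lay in the lower part of the vehicle range and inside it.

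Effector genes carry out the response to neuronal activity at synapses and as secreted signals. Of 18 tested, 17 had a negative estimate against each reference, with a median of -0.66 against vehicle and -0.34 against run mates, and 0 passed the threshold. These members too vary together between libraries. The growth factor gene Bdnf stood at 21, 55.2 and 19.7 CPM with Galantamine, Rivastigmine and Pyridostigmine, against 19.9 to 205 CPM in vehicles. Nptx2, which encodes a secreted protein that gathers AMPA receptors at synapses, was at 25.9, 76.8 and 19.5 CPM in the same 3 libraries, against 20.9 to 287 CPM in vehicles. Rivastigmine was the highest of the 3 drugs for both genes. Ptgs2, the inducible cyclooxygenase, was at 2.05, 20.9 and 1.87 CPM in them, against 1.35 to 72 CPM in vehicles, and had the largest negative class estimate in the list, -1.83 ± 1.2 log2 units (interval -4.41 to 0.75). Without Rivastigmine the Ptgs2 estimate was -3.87 against vehicle and -2.42 against run mates. ERK feedback genes, which are induced by and restrain that kinase pathway, had a median of -0.30 against vehicle and -0.10 against run mates, with 0 of 10 past the threshold.

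Scores over the list, the mean log2 CPM of its expressed members, put Galantamine at rank 6 of the 32 libraries of its run, counted from the lowest, for immediate early factors and at rank 4 for effectors. Rivastigmine and Pyridostigmine both ranked 19 of 32 for immediate early factors, and for effectors they ranked 18 and 11. Relative to the median of its run mates, the immediate early score was -0.40 with Galantamine, 0.13 with Rivastigmine and 0.15 with Pyridostigmine. The effector score was -0.54, 0.05 and -0.26 in the same order. On a scale where the vehicle mean is 0, the immediate early score was -0.86 with Galantamine, -0.19 with Rivastigmine and -0.60 with Pyridostigmine, and the 9 vehicles ran from -1.15 to 1.08. For immediate early factors Galantamine alone of the 3 drugs stood toward the low end of its run, and its score was above that of vehicles 2 and 4 (-1.15 and -1.11).

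Hypoxia response genes, targets of the oxygen-sensing factor HIF, had estimates of the same sign. All 14 members had a negative estimate against both references, with a median of -0.77 log2 units against vehicle and -0.45 against run mates, and 0 passed the threshold. These members vary together between libraries as well. Vegfa, the endothelial growth factor, stood at 84.3, 139 and 58 CPM with Galantamine, Rivastigmine and Pyridostigmine, against 61 to 298 CPM in vehicles. Slc2a1, the glucose transporter GLUT1, was at 43.2, 71.2 and 44.3 CPM in the same 3 libraries, against 38.8 to 135 CPM in vehicles, and differed by -0.45 ± 0.202 from run mates (interval -0.85 to -0.04; edgeR adjusted p = 1). The hypoxia score was -0.94, -0.09 and -1.20 in the order Galantamine, Rivastigmine, Pyridostigmine, and vehicles ran from -1.32 to 0.80. Relative to the median of its run mates the score was -1.11 with Galantamine (rank 4 of 32). It was -0.23 with Rivastigmine (rank 12) and -0.11 with Pyridostigmine (rank 15). The part of the hypoxia response in the activity gene values was not tested.

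**Figure D3:**
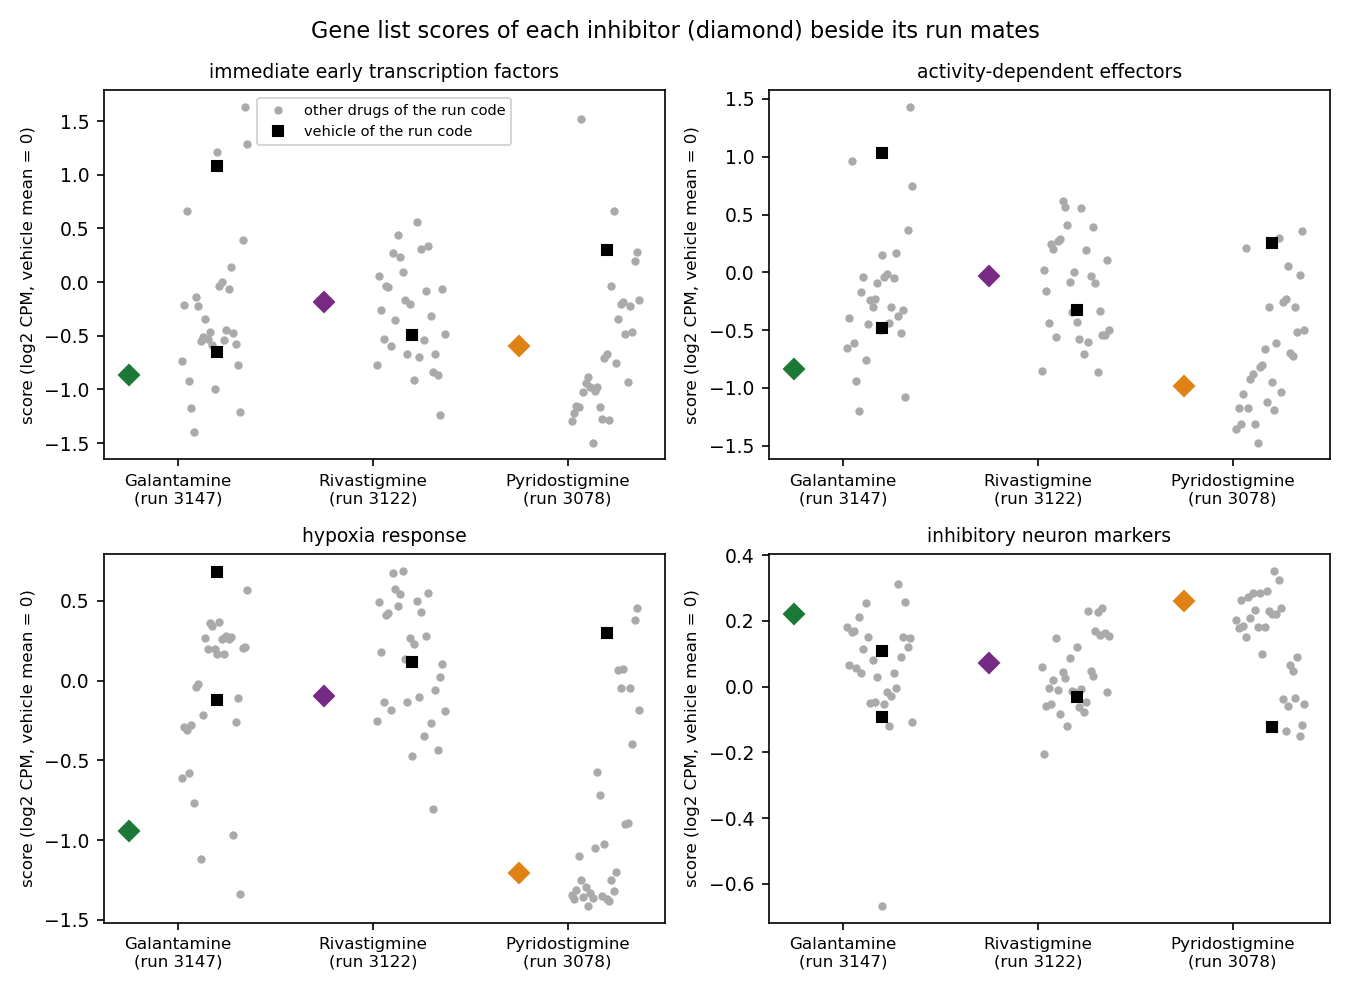
Mean log2 CPM of gene lists, with the vehicle mean at 0, for each inhibitor (diamond) beside the other libraries of its run code. Galantamine lies near the low end of its run for the activity and hypoxia lists, ranking 6, 4 and 4 of 32 for immediate early, effector and hypoxia genes, while Rivastigmine and Pyridostigmine lie among their run mates.

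Galantamine and rivastigmine are prescribed in Alzheimer's disease, and as a list the genes of amyloid precursor processing and tau were close to their references in the class contrasts. Of 15 genes, 0 passed the threshold, and the median was 0.03 against both references. App differed by -0.11 ± 0.117 log2 units from vehicle and 0.01 ± 0.0897 from run mates. The beta-secretase gene Bace1 differed by 0.03 ± 0.0541 from vehicle and the alpha-secretase gene Adam10 by 0.11 ± 0.0649, and the tau gene Mapt by 0.06 ± 0.0609. The intervals of these 4 genes against vehicle lay between -0.37 and 0.25. Inflammatory genes under NF-kB, of interest because acetylcholine can restrain cytokine release by macrophages, had a median of -0.09 against vehicle and -0.20 against run mates, with 0 of 13 past the threshold and wide intervals, such as -1.43 to 0.39 for Il1b against vehicle.

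Cell type markers showed no shift that passed the threshold. Fewer cells of a type and less RNA per cell cannot be told apart in these bulk libraries. Neuron markers had a median of -0.07 against vehicle and 0.07 against run mates, and inhibitory neuron markers 0.12 and 0.11. All 8 inhibitory markers had a positive estimate against vehicle, and Calb2, the calretinin gene, was at 38.6, 37.7 and 44 CPM with Galantamine, Rivastigmine and Pyridostigmine, against 22.9 to 39.3 CPM in vehicles (0.41 ± 0.132; edgeR adjusted p = 0.978). Against run mates Calb2 differed by 0.17 ± 0.127, and Npy, another of the 8, had a negative estimate of -0.02 ± 0.0825. Oligodendrocyte precursor markers had a median of -0.36 against vehicle and -0.22 against run mates, and oligodendrocyte markers of -0.43 and -0.35. Endothelial markers, of which 0 of 6 averaged over 1 RPKM, had medians of -0.42 and -0.41. Microglia markers, of which 1 of 8 averaged over 1 RPKM, had medians of -0.69 against vehicle and -0.31 against run mates, and these changed sign to 0.17 without vehicle 1 and to 0.04 with limma on voom values.

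No gene passed, so the genes described are those of lowest p against vehicle whose mean CPM was at least 1 and whose 3 inhibitor values lay on the same side of the vehicle mean. On the higher side they were B3gnt4, Kif26a, Pik3cb, Nkain3 and Calb2, with estimates of 0.18 to 0.61. On the lower side they were Adamts15, Scn7a, Fam122b, Fam43a and Mfsd9, with estimates of -0.94 to -0.19. B3gnt4, which encodes a glycosyltransferase, was at 1.56, 1.45 and 1.42 CPM with Galantamine, Rivastigmine and Pyridostigmine, against 0.723 to 1.2 CPM in vehicles. Mfsd9 was at 9.92, 9.92 and 10.2 CPM in the same 3 libraries, against 10.4 to 12.8 CPM in vehicles. For both genes the groups did not overlap, although B3gnt4 differed by only 0.27 ± 0.181 from run mates. Both were picked for low p in this comparison, which favours separated groups. Of all genes tested, 0.248% lay above every vehicle in all 3 inhibitor libraries and 0.181% lay below. Scn7a, an atypical sodium channel gene, was at 0.643, 0.999 and 0.653 CPM with Galantamine, Rivastigmine and Pyridostigmine. The vehicles ranged from 0.755 to 2.1 CPM, and the difference was -0.94 ± 0.27 (interval -1.52 to -0.35).

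Under the same conditions against run mates, the lowest p on the lower side belonged to Plekha4, Hhatl, Triqk, Nudt8 and Rmdn2, and on the higher side to Zfp933, Psmd7, Stx3, Kcnh5 and Mvb12b. Plekha4, which encodes a phosphoinositide-binding adaptor, ranked second lowest of 32 in all 3 runs, at 1.48, 1.31 and 0.958 CPM with Galantamine, Rivastigmine and Pyridostigmine, where the medians of the run mates were 1.98, 2 and 1.75 CPM. Its difference was -0.61 ± 0.158 log2 units from run mates (interval -0.93 to -0.30; edgeR adjusted p = 1) and -0.58 ± 0.21 from vehicle. Hhatl, a relative of the enzyme that acylates Hedgehog, ranked 1, 2 and 8 of 32 and differed by -0.72 ± 0.198 from run mates and -0.78 ± 0.258 from vehicle. Estimates on the higher side were 0.09 to 0.26.

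Each drug was also set alone against both references, with the spread of the reference standing for its own. Galantamine changed 0 of 15415 genes against vehicle (0%; 162 genes at an unadjusted p under 0.05) and 0 of 15707 against run mates (0%; 194). Rivastigmine changed 0 of 15397 against vehicle (0%; 126) and 0 of 15502 against run mates (0%; 234). Pyridostigmine changed 0 of 15421 against vehicle (0%; 221) and 0 of 15823 against run mates (0%; 144). Without vehicle 4 the unadjusted counts against vehicle were 253 for Galantamine and 490 for Pyridostigmine. edgeR gave these counts, and DESeq2 also called 0 in all 6 comparisons. Between 86.5% and 95.3% of genes with a mean CPM of 1 or more had intervals within 1 log2 unit of 0.

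With Galantamine, Hhatl had the lowest p on the lower side against both references among genes with a mean CPM of 1 or more, at 0.421 CPM where its run mates had a median of 1.08 CPM (-1.33 ± 0.334; edgeR adjusted p = 1). Serpinf1, which encodes the secreted factor PEDF, was at 0.643 CPM and the lowest of that run (median of run mates 2.2 CPM), and at 1.68 CPM with Pyridostigmine it was the lowest there too. With Rivastigmine, Trpv4, a calcium-permeable channel gene, was at 0.585 CPM and the lowest of its run, where run mates had a median of 1.46 CPM (-1.31 ± 0.438; edgeR adjusted p = 0.999). With Pyridostigmine, Mitf, a transcription factor best known from pigment cells, was at 2.96 CPM and the lowest of its run, where run mates had a median of 4.81 CPM (-0.74 ± 0.251). Noxo1, which encodes a component of a superoxide-producing oxidase, was likewise lowest at 1.55 CPM, where run mates had a median of 2.51 CPM.

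The 3 pairs of inhibitors were compared as differences between their fold changes against run mates, with p adjusted over all genes of the 3 pairs together. Of 16118 genes tested, 0 differed between Galantamine and Rivastigmine (0%; 201 at an unadjusted p under 0.05 in edgeR), 0 between Galantamine and Pyridostigmine (0%; 181) and 0 between Rivastigmine and Pyridostigmine (0%; 160). DESeq2 and limma on voom values also called 0 in each pair. The lowest adjusted p was 1. The share of genes with a mean CPM of 1 or more whose interval lay within 1 log2 unit of 0 was 82.7% for Galantamine and Rivastigmine, 83.1% for Galantamine and Pyridostigmine and 87.1% for Rivastigmine and Pyridostigmine. These widths do not show that the drugs act alike.

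Cholinergic genes were resolved unevenly. The median interval of genes with a mean CPM of 1 or more reached 0.389 log2 units to each side of Rivastigmine minus Pyridostigmine, and those of Ache, Chrm1 and Chrna7 were wider. Between the carbamates, Rivastigmine minus Pyridostigmine was 0.17 ± 0.676 log2 units for Ache (interval -1.17 to 1.5), -0.17 ± 0.472 for Chrm1 (interval -1.11 to 0.77), 0.17 ± 0.233 for Chrna7 (interval -0.29 to 0.63) and -0.12 ± 0.164 for Chrnb2 (interval -0.45 to 0.20). This pair contrasts a tertiary with a quaternary nitrogen. Between the alkaloid and the carbamates, Galantamine minus Rivastigmine was -0.37 ± 0.673 for Ache (interval -1.70 to 0.97) and -0.27 ± 0.234 for Chrna7 (interval -0.74 to 0.19), and Galantamine minus Pyridostigmine was -0.20 ± 0.674 for Ache and -0.10 ± 0.232 for Chrna7. Activity genes were poorly resolved, with Galantamine minus Rivastigmine at -1.01 ± 1.23 for Fos (interval -3.45 to 1.44) and -1.58 ± 1.43 for Nptx2 (interval -4.42 to 1.3).

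Between pairs, Exd1, CK137956 and Dpm1 were among the genes of lowest p with a mean CPM of 1 or more. Exd1 was at 2.3 CPM with Galantamine, lowest of its run, and 4.24 CPM with Rivastigmine, highest of its run (-0.84 ± 0.248; edgeR adjusted p = 1). The unnamed transcript CK137956 was at 2.45 CPM with Rivastigmine, highest of its run, and 1.02 CPM with Pyridostigmine, second lowest of its run (1.24 ± 0.332; edgeR adjusted p = 1). Dpm1, a subunit of the enzyme that supplies mannose for glycosylation, was at 3.24 CPM with Galantamine and 5.1 CPM with Pyridostigmine (-0.67 ± 0.236; edgeR adjusted p = 1).

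**Figure D4:**
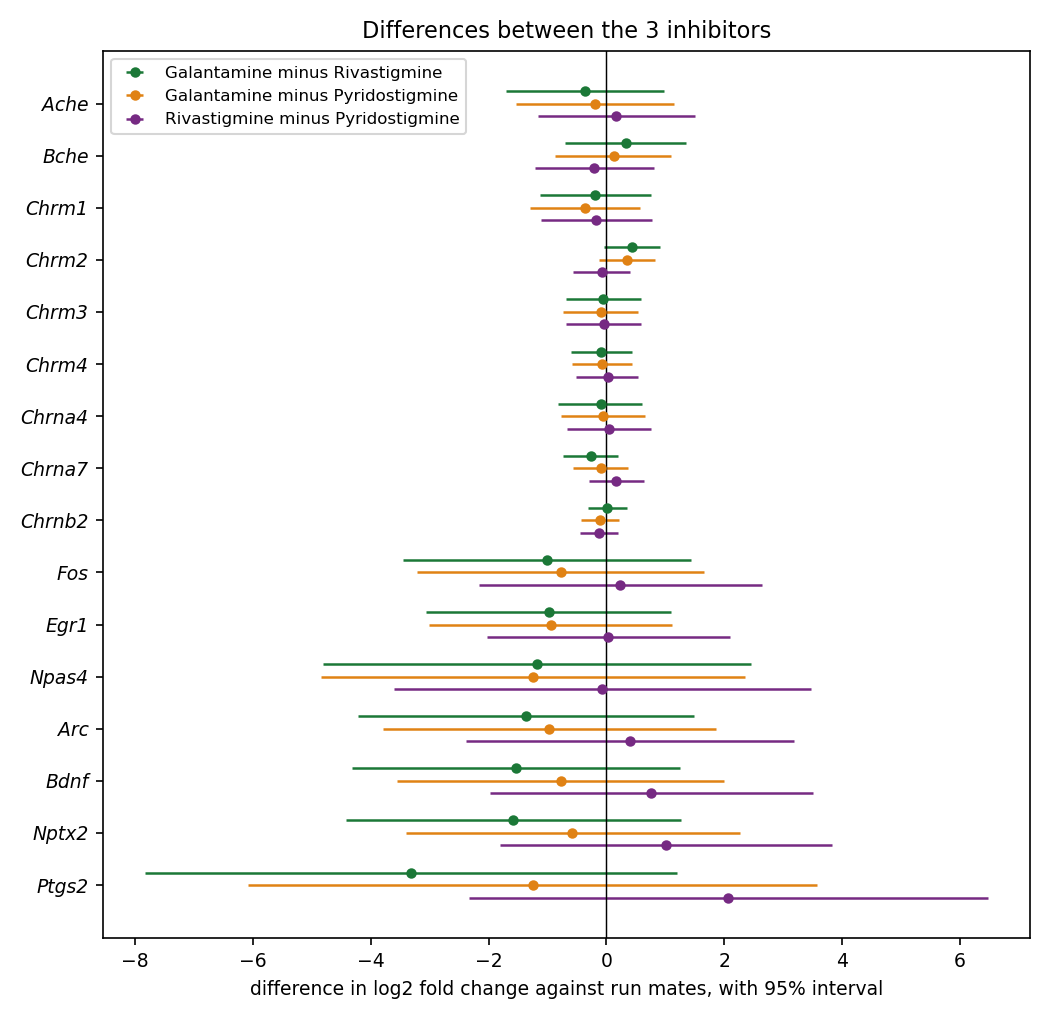
Differences in log2 fold change against run mates between the 3 pairs of inhibitors, with 95% intervals, for cholinergic and activity-regulated genes. All intervals drawn cross 0, and those of Ptgs2 and Npas4 are the widest, reaching from -7.83 to 1.2 for Ptgs2 between Galantamine and Rivastigmine.

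Drugs that block muscarinic receptors oppose the effect of raised acetylcholine on them, and 7 drugs of the screen were taken as this class. Any other drug with such an action stayed among the run mates. They were labelled Benztropine Mesylate, Biperiden·HCl, Darifenacin·HBr, Dicyclomine·HCl, Oxybutynin Chloride, Tolterodine Tartrate and Trihexyphenidyl·HCl. Only Oxybutynin shared a run code with an inhibitor, which was Pyridostigmine. The contrast therefore mostly sets deviations from different sets of run mates against each other. In a fit of 160 libraries with a term for run code, the inhibitor class differed from these antimuscarinic drugs at 0 of 15722 genes (0%). At an unadjusted p under 0.05 in edgeR there were 145 genes (0.922%). The limma test on voom values also called 0. Fos differed by 0.07 ± 0.622 log2 units (interval -1.16 to 1.30), Ache by -0.09 ± 0.318 and Chrm1 by 0.04 ± 0.223. Immediate early factors had a median of -0.04 and effectors of -0.20 in this contrast, and 98.3% of 13017 genes had an interval within 1 log2 unit of 0.

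Over the whole transcriptome the inhibitors lay within the range of their run mates. The root mean square distance from the mean of the run mates over 9781 genes was 0.148 log2 units for Galantamine (rank 20 of 32 from the nearest), 0.11 for Rivastigmine (rank 11) and 0.116 for Pyridostigmine (rank 9). The vehicles of the same runs had distances of 0.0794 to 0.265, so a vehicle culture could lie farther from its run than any of the 3 drugs. Deviations of Rivastigmine and Pyridostigmine from these means correlated at r = 0.547 across genes, against -0.175 for Galantamine and Rivastigmine and -0.06 for Galantamine and Pyridostigmine. Genes are not independent replicates. Among 961 other pairs of libraries from the same runs as the carbamates r ranged from -0.85 to 0.87 with a median of 0.01, and the range was as wide for the other pairs of runs, so all 3 values lay inside it.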

How the data were processed

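RNA was sequenced from 227 cultures, per the labels' protocols with a stranded mRNA kit. The submitters' processing notes give mm10 as the build and list edgeR 3.10.5, limma, Subread 1.4.6 and STAR 2.4.0, with no step assigned. The deposited counts are whole reads per gene for 31689 genes, not normalized. The RPKM values deposited by the authors were used only to compare levels between genes. Of the gene identifiers, 31328 were found in GENCODE vM21. Groups came from the agent labels.

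Counts were tested in R 4.3.3 with edgeR 4.0.16 (TMM factors, default filter on low counts, quasi-likelihood F test, Benjamini-Hochberg adjusted p under 0.05). The class was fitted against 9 vehicles without a run term, and against run mates over 96 libraries with one. Standard errors come from the F statistic, intervals are 95%, and log2 CPM used a prior count of 1. Alternatives were RLE factors, DESeq2 1.42.0, limma 3.58.1 on voom values, a robust fit, no filter, a run-code term and leaving out libraries. The tests were also tried on simulated data. No inhibitor library looked identical to another library: the lowest chi-square per gene between an inhibitor and any other library was 2.65 over 12674 genes. Members and the 22 gene lists were chosen with earlier results of these data known. Genes named had a mean CPM of 1 or more. Per class contrast the rule named up to 10 called genes each way, or the 5 of lowest p where fewer passed, with all 3 inhibitors on the same side of the reference mean. For single drugs and pairs it named the 3 of lowest p each way, and all cholinergic and activity list members in addition, of which the text gives a part.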

Additional observations from a re-analysis of the deposited data

Results flagged for a closer look

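Among 40 sets of values examined in the 9 vehicle libraries, 1 held a library far from the others. Rmdn2 stood at 4.35, 4.1 and 3.77 CPM in the Galantamine, Rivastigmine and Pyridostigmine libraries, against 3.72 CPM in vehicle 4 and 4.44 to 4.91 CPM in the other vehicles, and vehicle 4 was the library set apart. Chance sets 1 library apart in about 1 of 20 such sets.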

How the results depend on the processing

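Every alternative run called 0 genes in each of the 12 comparisons it was run on, including DESeq2, RLE factors, a robust fit, no filter on low counts and leaving out each vehicle or each inhibitor. Counts at an unadjusted p under 0.05 moved more. For the class against vehicle they ran from 131 without Pyridostigmine to 796 with a run-code term over 12 libraries, beside 276 in the fit reported. Against run mates they ran from 283 without Pyridostigmine to 714 without the filter, beside 414. Without the filter, which leaves more genes to test, these counts were over 1.5 times those with it in all 12 comparisons. Of 30 genes followed under 17 alternatives against vehicle, 506 of 510 values stayed within 1 SE of the estimate reported, and 263 of 270 did against run mates. Of the medians of the 22 gene lists, 346 of 374 values against vehicle and 190 of 198 against run mates moved by less than the SD of the 3 drugs, and 28 and 8 moved by more.

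The class difference in Ache from vehicle ran from -0.73 without Rivastigmine to -0.32 without Pyridostigmine. The immediate early median against run mates was -0.13 without Galantamine and -0.50 without Rivastigmine, and the hypoxia median -0.30 and -0.56. The cause was not tested. Chrm1 against run mates changed sign, with values from -0.11 to 0.07. No paired analysis was possible because each drug had 1 library, whose replicate number pairs it with no vehicle. The run code, which each inhibitor shares with vehicles and other drugs, was a term in the fit over 12 libraries above and in the contrasts with run mates. With 1 library a drug, culture and dose cannot be told apart from the drug.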

Other observations

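In all 3 inhibitor libraries 37 genes (0.248% of those tested) lay above every vehicle. Of these, only mt-Nd2, mt-Nd4 and mt-Cytb are encoded by the mitochondrial genome. These mitochondrial genes were chosen after their values were seen. mt-Nd2 averaged 3590 CPM in inhibitor libraries and 3040 CPM in vehicle libraries, mt-Nd4 3510 CPM with the inhibitors and 3080 CPM with vehicle, and mt-Cytb 7790 CPM with the inhibitors and 6730 CPM with vehicle. Mitochondrial genes together took 3.90%, 3.86% and 4.2% of reads with Galantamine, Rivastigmine and Pyridostigmine, against 3.1 to 3.91% in vehicles. Over the 96 libraries of the 3 runs this share ran from 2.90 to 4.36%, with a median of 3.86%.

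Rel, which encodes an NF-kB subunit, was among the 27 genes (0.181% of those tested) below every vehicle in all 3 inhibitor libraries. It averaged 3.01 CPM in inhibitor libraries and 4.97 CPM in vehicle libraries, and was likewise chosen after its values were seen.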
